A study of Mus musculus with 12 samples.

Results

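The genes described here are 9 members of the neuregulin and Notch pathways, *Nrg1*, *Erbb2*, *Erbb3*, *Erbb4*, *Notch1*, *Jag1*, *Hey1*, *Hey2* and *Heyl*, picked by name out of the 48526 genes in each count file, and all 9 were found there. Their RNA was measured by RNA-seq in Purkinje cells (PCs), the fast conducting cells of the ventricular conduction system, and in working ventricular myocytes (VMs). Cells came from dissociated adult mouse hearts, *Ncam-1* WT or *Ncam-1* KO, and both genotypes carried the *Cntn2*-EGFP BAC transgene, in which the *Cntn2* locus drives GFP. PCs were sorted as RFP+GFP+ and VMs as RFP+GFP- cells after staining with 50 nM TMRM, a red dye of mitochondria that marks cardiomyocytes, and the 4 groups (WT PC, KO PC, WT VM and KO VM) held 3 libraries each. The KO is germline, so that *Ncam-1* was missing in the whole animal and not in the sorted cells alone. The KO line was kept on C57BL/6 and the reporter on CD1 before the lines were crossed, and neither the number of hearts behind a library nor the strain mixture of a library is stated in the sources used here.

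Neuregulin-1, the product of *Nrg1*, is a ligand with an EGF-like domain that endothelial and endocardial cells release towards cardiomyocytes. It binds the receptor tyrosine kinases ERBB3 and ERBB4. ERBB2 binds no ligand itself and signals as their partner. NOTCH1 is a membrane receptor that ligands on a neighbouring cell, such as JAG1, cause to be cut. Its freed intracellular part then enters the nucleus and activates genes together with the DNA-binding protein RBPJ. The repressors HEY1, HEY2 and HEYL are well-known products of such target genes. Both pathways act in trabeculation of the embryonic ventricle, and both have been linked to the conduction phenotype of myocytes.

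*Ncam1*, the targeted gene, matched the genotype labels. It had 36.2, 66.3 and 67.0 normalized counts in the WT PC libraries (replicates 1, 2 and 3), against 0, 1.26 and 0.668 in KO PC. Normalized counts are read pairs per gene divided by the library's scaling factor. The WT VM libraries held 5.63, 0 and 6.66, and no KO VM library held any. *Cntn2*, whose reporter defined the PC gate, had 237, 451 and 533 normalized counts in WT PC and at most 8.99 in any VM library. In KO PC it had 38.67 and 49.2 in replicates 1 and 2 but 452 in replicate 3. WT PC replicate 2 stood apart, since 63.9% of its read pairs found no alignment while this share was 18.8% to 24.7% elsewhere. The cardiomyocyte markers summed to between 409761 and 712553 normalized counts in every library, as the label of both sorts says. Nuclear genes received 1532393 to 6761356 counts per library, and this depth limits what can be seen of the weaker of the 9 genes.

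*Notch1* was the 1 member called between the cell types, with higher counts in PCs than in VMs. *Hey2* was the member with a low level in WT PC alone, and its promoter and that of *Notch1* are shown here for that reason. Promoter windows of RefSeq (GRCm38.p6) were at hand for 5 of the 9 genes, *Erbb2*, *Erbb4*, *Notch1*, *Jag1* and *Hey2*, and each was searched over the 250 bases before the RefSeq start. The motif searched was the core bound by RBPJ, TGGGAA, on both strands, and its longer form CGTGGGAA, which contains the core. The *Hey2* window held 1 match to both, on the strand opposite to the gene, where it reads as the reverse complement with its first base 207 bases before the start. No match lay in the other 4 windows. The core occurred in 21.6% and the longer form in 0.636% of the 32851 windows of the table. Capitals mark the match, and both windows lie on the minus strand, at chr10:30842784-30843033 for *Hey2* and at chr2:26503823-26504072 for *Notch1*.
Hey2: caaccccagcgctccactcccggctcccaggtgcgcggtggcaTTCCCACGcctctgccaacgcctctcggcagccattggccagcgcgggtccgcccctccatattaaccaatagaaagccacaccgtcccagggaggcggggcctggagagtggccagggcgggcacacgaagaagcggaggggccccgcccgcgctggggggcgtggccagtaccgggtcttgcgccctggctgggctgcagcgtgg
Notch1: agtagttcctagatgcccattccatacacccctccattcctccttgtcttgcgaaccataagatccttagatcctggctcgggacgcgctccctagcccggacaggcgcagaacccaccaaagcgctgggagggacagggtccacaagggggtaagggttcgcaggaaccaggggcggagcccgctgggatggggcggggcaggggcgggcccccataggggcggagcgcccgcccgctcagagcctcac

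In GENCODE release M21 (GRCm38) *Nrg1* lies on chromosome 8 from 31814551 to 32884029 (minus strand). *Erbb2* lies on chromosome 11 from 98412470 to 98437716 (plus strand) and *Erbb3* on chromosome 10 from 128567523 to 128589652 (minus strand). *Erbb4* spans 68032186 to 69108059 on chromosome 1 and *Notch1* 26457903 to 26516663 on chromosome 2, both on the minus strand. *Jag1* (chromosome 2, 137081456 to 137116644, minus strand) and *Hey1* (chromosome 3, 8663359 to 8667256, minus strand) are followed by *Hey2* (chromosome 10, 30832359 to 30842801, minus strand) and *Heyl* (chromosome 4, 123233556 to 123249875, plus strand). All 9 are annotated as protein coding. Genes annotated on the opposite strand share 1068 (0610009E02Rik, at most 3 counts in a library) and 414 (Gm13568, no count) exonic bases with *Notch1*, 482 with *Nrg1* (Gm26578, at most 1 count) and 9 with *Erbb2* (Mien1). Whether the counting used strand is not stated in the sources used here.

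*Nrg1* was the weakest of the 9 genes per length in each group. Its normalized counts in replicates 1, 2 and 3 were 10.9, 0 and 8.67 in WT PC and 12.3, 2.53 and 14.7 in KO PC. They were 6.56, 0 and 10.4 in WT VM and 0, 1.28 and 1.16 in KO VM. The WT groups overlapped. KO PC and KO VM could not be separated either, since the count of 0 in KO VM replicate 1 allows up to 4.24 normalized counts (3 read pairs) and KO PC replicate 2 had 2.53. The KO VM libraries held 2 read pairs of *Nrg1* in all, against 31 in KO PC, of which 22 came from replicate 3, a depth-corrected ratio of 12.7 for PC over VM with a 95% exact interval of 3.24 to 110 that covers counting error only. With so few counts the gene fell below the minimum for the test in KO PC against KO VM.

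The receptor genes *Erbb4* and *Erbb3* were the most abundant members, and neither was called between cell types or genotypes. *Erbb4* had 245, 164 and 253 normalized counts in WT PC and 87.9, 163 and 177 in KO PC. WT VM had 187, 184 and 187, while KO VM had 212, 162 and 178. All VM libraries thus lay inside the range of the PC libraries, and KO PC replicate 1 was the lowest of the 12. The log2 fold change of PC over VM across both genotypes was -0.04 ± 0.19 (SE), with a 95% confidence interval of -0.45 to 0.37. KO PC against WT PC gave -0.62 (95% confidence interval -1.39 to 0.14), and -0.84 to -0.37 with single libraries left out. A lower level in KO PC was thus neither called nor excluded.

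*Erbb3* had 71.5, 9.75 and 43.9 normalized counts in WT PC, 61.5, 58.1 and 54.1 in KO PC, 53.5, 68.7 and 46.6 in WT VM, and 60.8, 44.9 and 66.0 in KO VM. WT PC replicate 2 was by far the lowest, and the other 11 libraries lay within 43.9 to 71.5. The log2 fold change of PC over VM across both genotypes was -0.17 ± 0.32 (SE; 95% confidence interval -0.84 to 0.50). Since *Erbb3* is also a gene of Schwann cells, which wrap nerve fibres, the markers of that cell type were checked. *Sox10* and *Foxd3*, transcription factors of that lineage, had no count in any of the 12 libraries, and the summed level of the marker list was between 0.941 and 20.0 normalized counts.

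*Erbb2* was weaker and scattered widely inside each group. It had 29.2, 3.90 and 17.9 normalized counts in WT PC, 22.9, 8.84 and 8.02 in KO PC, 8.44, 16.9 and 11.1 in WT VM, and 29.7, 11.6 and 6.95 in KO VM. All 4 groups overlapped, and the log2 fold change of PC over VM across both genotypes was 0.15 (95% confidence interval -0.92 to 1.22).

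*Notch1* had 46.6, 19.5 and 39.9 normalized counts in WT PC and 43.9, 21.5 and 20.0 in KO PC. It had 8.44, 8.47 and 11.8 in WT VM and 0, 5.14 and 4.63 in KO VM. Every PC library was above every VM library, in both genotypes. Across both genotypes the mean was 31.9 in PCs and 6.42 in VMs, a log2 fold change of 2.35 ± 0.47 (SE; 95% confidence interval 1.36 to 3.33), or 5.09-fold, with an adjusted p of 0.0162 by edgeR's quasi-likelihood test over 11323 genes. The exact permutation test within genotype gave p = 0.005, the smallest value its 400 relabellings allow. Within WT the log2 fold change was 1.87 ± 0.55 (adjusted p = 0.6001) and within KO it was 2.999 ± 0.74 (adjusted p = 0.0814), so neither pair of 3 and 3 libraries passed the adjustment on its own. These 3 comparisons share libraries and are not independent of each other.

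**Figure D1:**
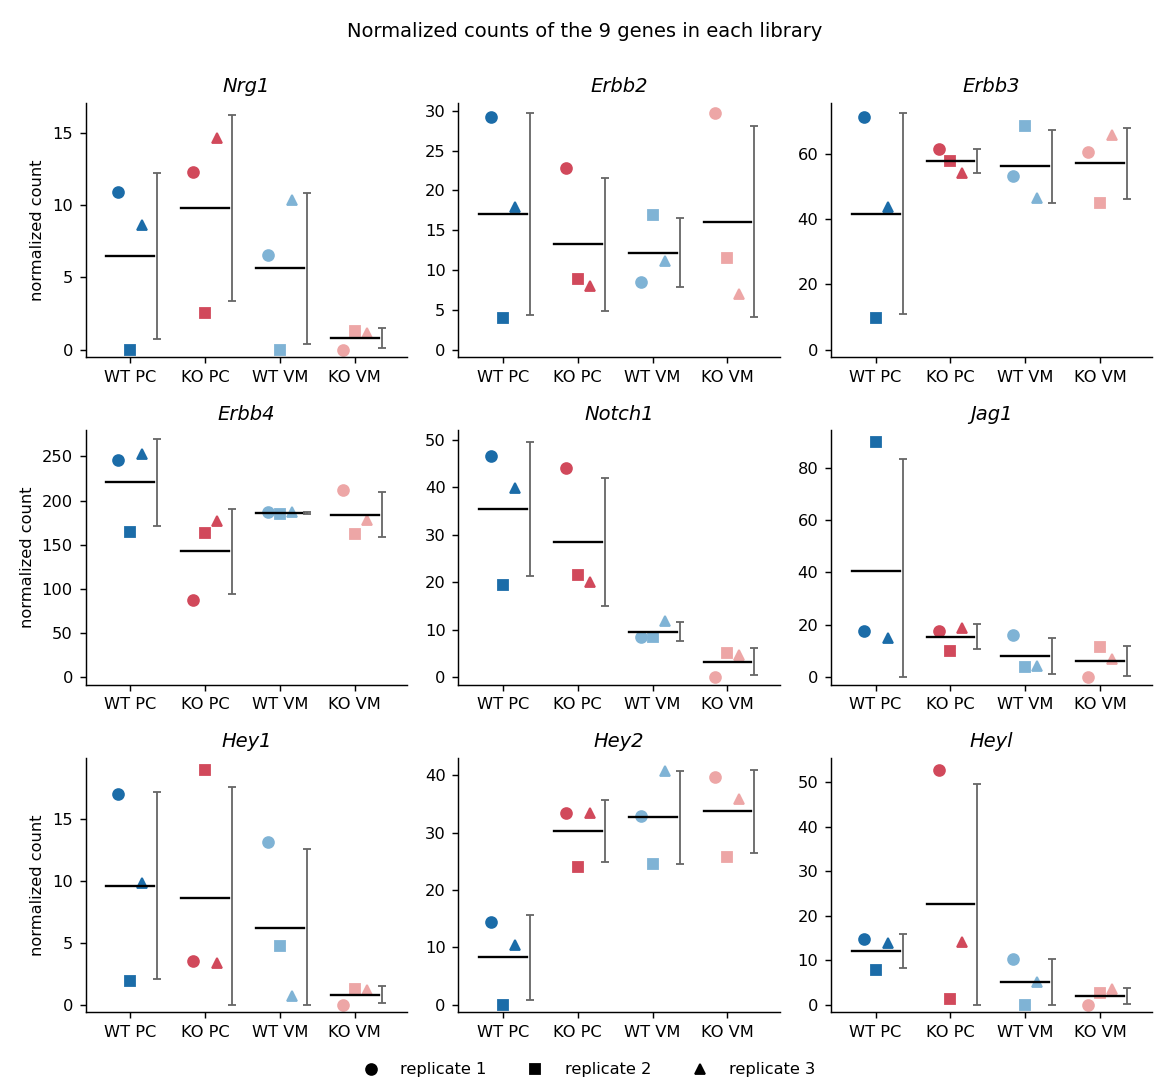
Normalized counts (y axes, linear, a scale for each gene) of the 9 genes in the 12 libraries, by group and replicate (marker shape), with the mean as a horizontal line and the SD (n = 3, cut at 0) as a bar beside it. All *Notch1* points of PCs (19.5 to 46.6) lie above those of VMs (0 to 11.8), and the *Hey2* points of WT PC (0 to 14.4) lie below those of the other 3 groups (23.99 to 40.7).

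The call for *Notch1* did not stand with every choice of libraries. Without KO VM replicate 3 the adjusted p was 0.0506, and without WT VM replicate 2 it was 0.0556, at log2 fold changes of 2.35 and 2.37. Without WT PC replicate 2 the adjusted p was 7.84e-04, and WT PC against WT VM then also passed (log2 fold change 2.14, adjusted p = 0.0229). Leaving out WT PC replicate 2 together with the KO PC libraries of low *Cntn2*, a choice made after the data were seen, gave 2.27 and an adjusted p of 0.00295. KO PC was then 1 library with no spread of its own, assumed to vary as the other groups did.

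Markers of other cell types moved with *Notch1*. The 13 endothelial markers, which include *Pecam1*, *Cdh5* and *Kdr* with counts in all 12 libraries, summed to 825 to 1225 normalized counts in WT PC and 744 to 2331 in KO PC. They summed to 405 to 742 in WT VM and 141 to 494 in KO VM, so that their PC and VM ranges did not overlap either. All 12 endothelial markers tested had fold changes above 0 for PC over VM across both genotypes, 2 of them called, at a median log2 fold change of 1.46 against 0.02 over all genes. All 8 fibroblast markers tested (4 called) and all 6 leukocyte markers tested (3 called) had values above 0 as well, and so had 8 of 9 markers of smooth muscle and pericytes (1 called). Their median log2 fold changes were 1.88, 2.13 and 1.28 in this order. Over all genes tested 1.28% were called. KO VM replicate 1, in which *Notch1*, *Nrg1*, *Jag1*, *Hey1* and *Heyl* all had a count of 0, had the lowest endothelial sum of the 12 libraries, 141. A count of 0 there allows up to 4.24 normalized counts (3 read pairs). The part of these cells in the *Notch1* difference was not tested. In sorted pools such as these, fewer cells of a type and less RNA per cell cannot be told apart.

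**Figure D2:**
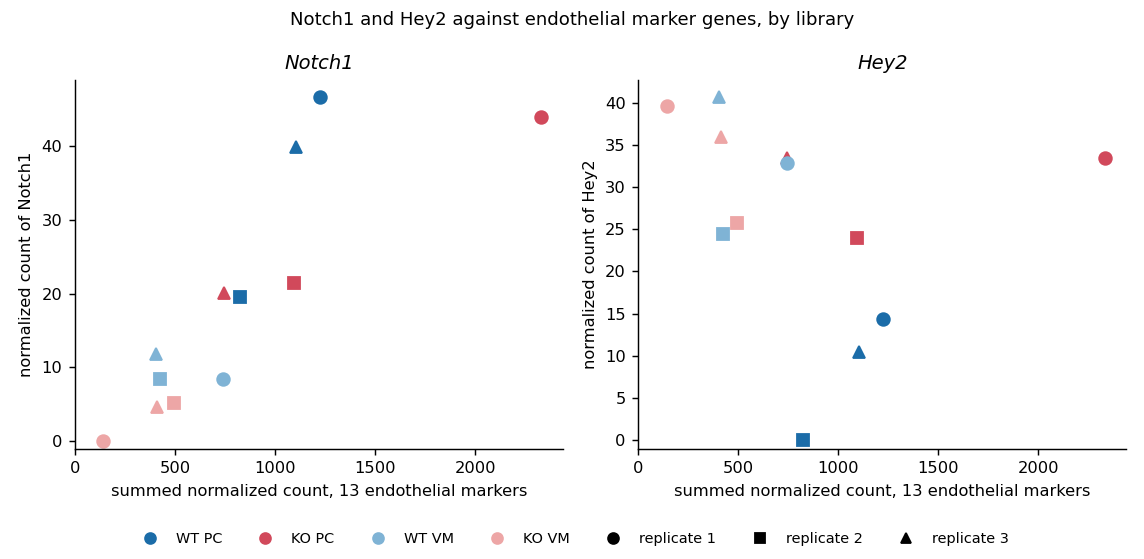
Normalized count of *Notch1* (left) and *Hey2* (right) against the summed normalized count of 13 endothelial markers in the same library, coloured by group with the replicate as marker shape, linear axes. The VM libraries (sums of 141 to 742) hold the 6 lowest *Notch1* values, while the low *Hey2* values belong to the 3 WT PC libraries (sums of 825 to 1225).

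*Jag1*, the ligand gene, was mostly higher in PCs but did not pass the adjustment. It had 17.4, 89.7 and 15.0 normalized counts in WT PC, 17.6, 10.1 and 18.7 in KO PC, 15.9, 3.76 and 4.44 in WT VM, and 0, 11.6 and 6.95 in KO VM. WT PC replicate 2, the library with most unaligned pairs, was the highest of all, and the PC and VM ranges overlapped. The log2 fold change across both genotypes was 1.82 ± 0.64 (SE), with an adjusted p of 0.209. Without WT PC replicate 2 it was 1.16, with an adjusted p of 0.296.

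Among the *Hey* genes, *Hey2* ran against the others. *Hey2* had 14.4, 0 and 10.4 normalized counts in WT PC and 33.4, 23.99 and 33.4 in KO PC. It had 32.8, 24.5 and 40.7 in WT VM and 39.6, 25.7 and 35.9 in KO VM. The 3 WT PC libraries were below all 9 others, which overlapped freely. A count of 0 in WT PC replicate 2 allows up to 5.85 normalized counts (3 read pairs), so that this library too lay below the other groups at its limit.

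The low *Hey2* level of WT PC did not pass the adjustment in any comparison. WT PC against WT VM gave a log2 fold change of -1.84 ± 0.79 (SE), with an adjusted p of 0.779. KO PC against WT PC gave 1.72 (95% confidence interval -0.20 to 3.64, adjusted p = 0.993). In each of these, the exact permutation test gave p = 0.1, the smallest that 3 against 3 libraries allow. KO PC against KO VM gave -0.15 (95% confidence interval -0.96 to 0.65) and KO VM against WT VM gave 0.03 (-0.66 to 0.72). The genotype effects in PCs and VMs differed by 1.62 (95% confidence interval -0.10 to 3.33), with an adjusted p of 0.999. Without WT PC replicate 2, which had no *Hey2* count, WT PC against WT VM gave -1.41 with an adjusted p of 0.203. In KO PC replicates 1, 2 and 3 *Hey2* stood at 33.4, 23.99 and 33.4 where *Cntn2* stood at 38.67, 49.2 and 452, and the part of the low *Cntn2* of these libraries in the *Hey2* values was not tested.

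*Heyl* and *Hey1* were low and mostly higher in PCs. *Heyl* had 14.8, 7.80 and 13.9 normalized counts in WT PC, 52.7, 1.26 and 14.0 in KO PC, 10.3, 0 and 5.18 in WT VM, and 0, 2.57 and 3.47 in KO VM. KO PC replicate 1, which had the highest endothelial sum (2331), also had the highest *Heyl* count. The log2 fold change across both genotypes was 2.14 ± 0.83 (SE), with an adjusted p of 0.280. Without KO PC replicate 1 it was 1.504, and without WT VM replicate 1 it was 2.76.

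*Hey1* had 17.0, 1.95 and 9.82 normalized counts in WT PC, 3.52, 18.9 and 3.34 in KO PC, 13.1, 4.71 and 0.740 in WT VM, and 0, 1.28 and 1.16 in KO VM. The WT groups overlapped. KO PC and KO VM could not be separated, since KO PC replicates 1 and 3 lay below the 4.24 normalized counts that a count of 0 allows in KO VM replicate 1. The KO VM libraries held 2 read pairs of *Hey1* and the KO PC libraries 22, of which 15 came from replicate 2. Across both genotypes the log2 fold change was 1.59 ± 0.80 (SE; adjusted p = 0.464), and it was 1.07 without KO PC replicate 2 and 2.46 without WT VM replicate 1.

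**Figure D3:**
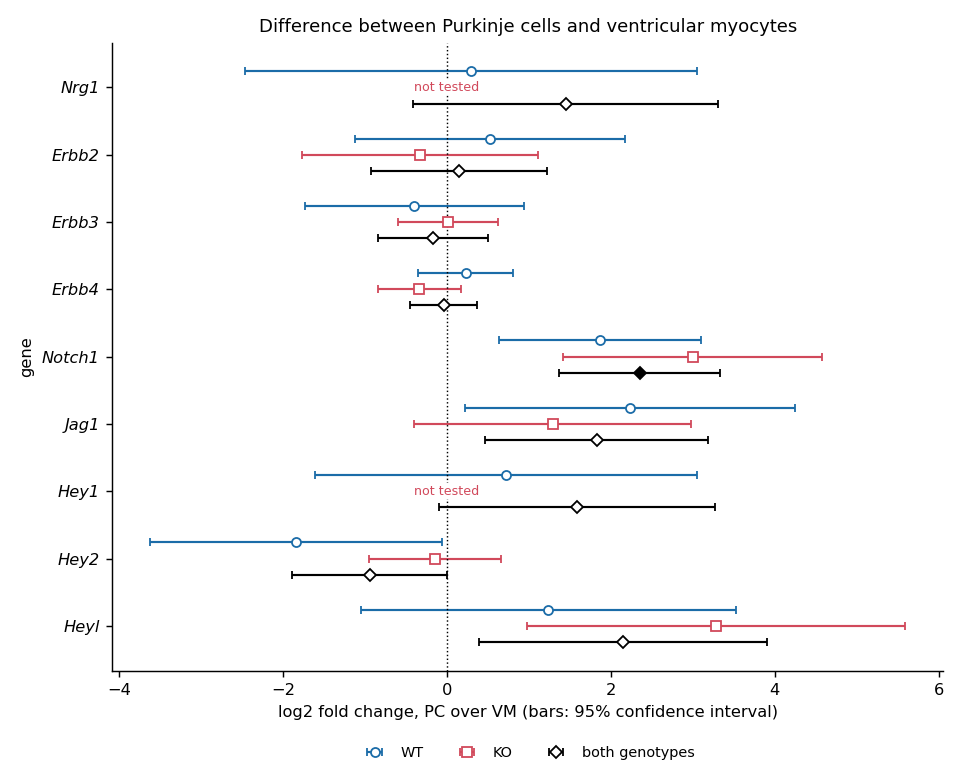
Log2 fold change of PC over VM (x axis) for each gene (y axis) in WT, in KO and across both genotypes, from edgeR, with bars for the 95% confidence interval and filled symbols for an adjusted p under 0.05. *Notch1* across both genotypes (2.35) is the only filled symbol, and *Hey2* in WT (-1.84) lies on the other side of 0.

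Counted over the members, 1 of 9 was called between PCs and VMs across both genotypes (adjusted p under 0.05), where 1.28% of all genes tested were called. In the same comparison 4 of 9 members, *Notch1*, *Jag1*, *Hey2* and *Heyl*, had an unadjusted p under 0.05, where 11.7% of all genes had, and 1 of 9 had groups that did not overlap, where 1.89% of all genes had. The median log2 fold change of the 9 members was 1.45, the value of *Nrg1*, against 0.02 over all genes. *Nrg1*, *Hey1* and *Heyl* averaged 8.18, 9.09 and 17.4 normalized counts in PCs and 3.23, 3.50 and 3.59 in VMs. They passed the minimum of 5 through their PC libraries. Neither this median nor the place of *Heyl* among the 4 can therefore be read as a shift of the set. Within WT the median was smaller, at 0.53 over the 9 members (-0.0036 over all genes). Within KO it was 0.0085 over the 7 members tested (0.0092 over all genes). The count minimum left out *Nrg1* and *Hey1* there, which had 31 and 22 read pairs in KO PC and 2 each in KO VM. The KO median thus lacks members with more counts in PCs and cannot be compared with the medians over 9. In WT PC against WT VM edgeR called none of 9 members (0.110% of all genes), 3 had an unadjusted p under 0.05 (6.36% of all genes), and 2, *Notch1* and *Hey2*, did not overlap (13.9% of all genes). DESeq2 called none there and limma voom 1, *Notch1*. In KO PC against KO VM edgeR called none of the 7 members tested (0.872% of all genes), 2 had an unadjusted p under 0.05 (9.70%) and 1 did not overlap (15.6%). DESeq2 called 1 there, *Notch1*, and limma voom none. The 2 members, *Notch1* and *Heyl*, averaged 3.26 and 2.01 normalized counts in KO VM. They passed the minimum of 5 through KO PC, so that these counts of members cannot be read as a shift of the set. The choice of members used no value of these comparisons, but it was made with earlier results known.

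No member was called between the genotypes. In KO PC against WT PC edgeR called none of 9 members and 0% of all genes, and none of the 9 had an unadjusted p under 0.05 (3.22% of all genes). The targeted gene *Ncam1*, with a mean of 56.5 normalized counts in WT PC and 0.644 in KO PC, was thus not called either. A missing call in this comparison therefore says little about a member. *Hey2* was the 1 member without overlap (9.52% of all genes). In KO VM against WT VM none of the 6 members tested was called (0.0373% of all genes) or had an unadjusted p under 0.05 (5.12%), and *Notch1*, lower in all 3 KO libraries, was the 1 without overlap (9.63%). Its log2 fold change there was -1.50 ± 0.75 (SE; adjusted p = 0.940). *Notch1* averaged 9.58 normalized counts in WT VM and 3.26 in KO VM, where it had 8 read pairs in all. It passed the minimum of 5 in this comparison through WT VM, so that its lack of overlap rests on few counts. Across both cell types none of 9 was called (0.0353% of all genes) and none had an unadjusted p under 0.05 (5.03%). The difference between the genotype effects was called for none of 9 members and 0% of all genes, and none had an unadjusted p under 0.05 (2.90%). DESeq2 and limma voom called no member in these 4 comparisons either.

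The intervals show what such comparisons could have missed. For *Erbb4* the genotype effect in VMs was -0.02 on the log2 scale (95% confidence interval -0.39 to 0.34), the narrowest of the members. In PCs it was -0.62 (-1.39 to 0.14). For *Notch1* in PCs it was -0.37 (-1.64 to 0.90) and for *Jag1* -1.31 (-3.05 to 0.43). The *Jag1* value was -0.075 without WT PC replicate 2, the library at 89.7, and -0.20 under limma voom. *Nrg1*, *Hey1* and *Heyl* fell below the count minimum in VMs. Their depth-corrected ratios of KO VM over WT VM were 0.141 for *Nrg1* (95% exact interval 0.0160 to 0.577), 0.148 for *Hey1* (0.0168 to 0.610) and 0.412 for *Heyl* (0.119 to 1.15), and these intervals cover counting error only. Between libraries *Nrg1* and *Hey1* in KO VM overlapped with WT VM, with exact permutation p-values of 0.4 and 0.3. Of 12 endothelial markers tested there, 11 had values below 0 and none was called. Their median log2 fold change was -0.72, against -0.02 over all genes. The part of endothelial cells in the values of *Nrg1*, *Hey1* and *Heyl* was not tested.

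**Figure D4:**
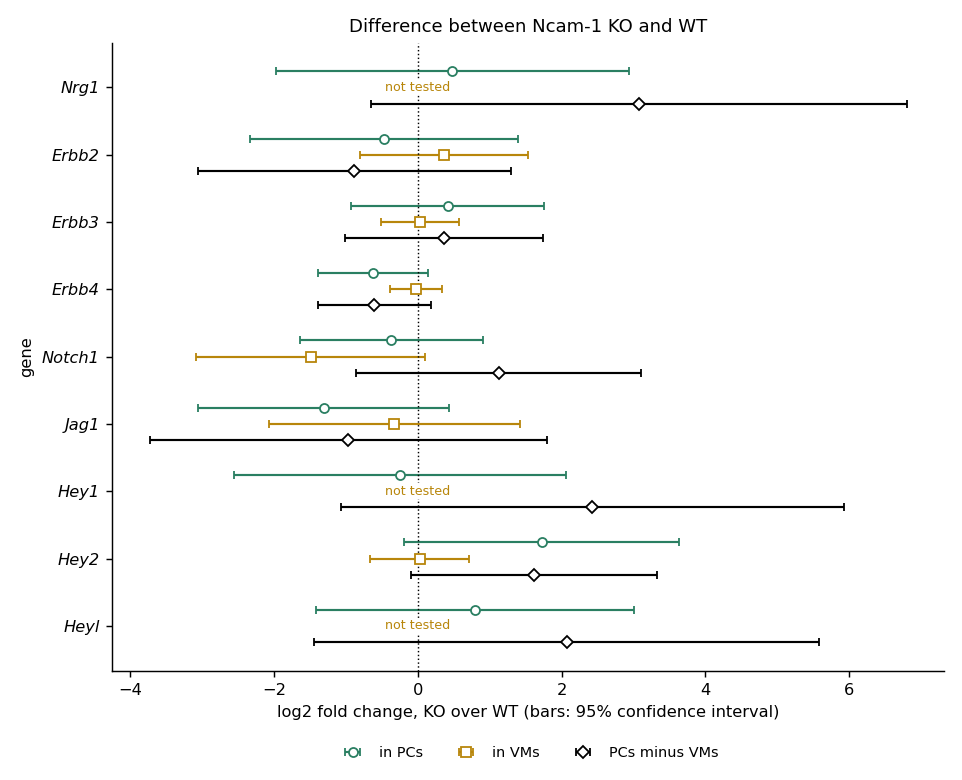
Log2 fold change of KO over WT (x axis) for each gene (y axis) in PCs, in VMs and as the difference between both effects, from edgeR, with bars for the 95% confidence interval. Every interval reaches across 0, among them that of *Hey2* in PCs (-0.20 to 3.64) and of its difference from VMs (-0.10 to 3.33).

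Per kb of annotated exon, the order of the members by mean level was led by *Erbb4* in each group, at 17.9 ± 4.003 (SD, n = 3) normalized counts per kb in WT PC, 11.5 ± 3.88 in KO PC, 15.1 ± 0.113 in WT VM and 14.9 ± 2.08 in KO VM. In VMs *Erbb3* followed (9.35 in WT, 9.52 in KO) without overlap with *Erbb4*. *Hey2* came next (7.11 and 7.34), and its range overlapped with that of *Erbb3*. In WT VM a gap without overlap separated *Hey2* from *Erbb2* (2.33), and the other 5 members followed with overlapping ranges down to *Nrg1* (0.545). In KO PC *Hey2* was again in the third place (6.59), separated from *Erbb3* (9.63), and the lower places were not told apart. In WT PC *Hey2* stood in the eighth place (1.80), and each member overlapped with the next.

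**Figure D5:**
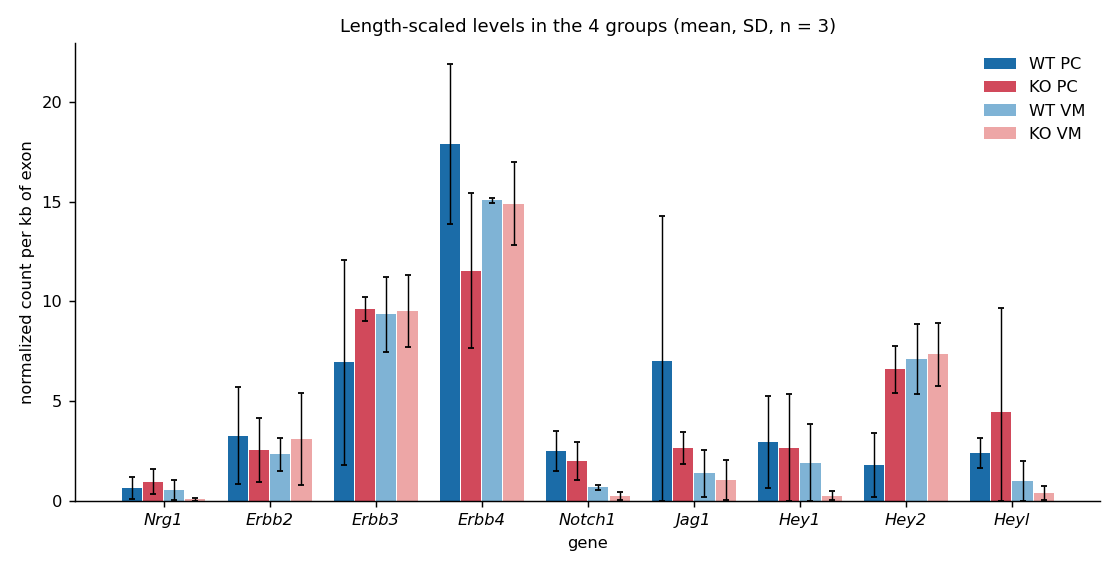
Normalized count per kb of annotated exon (y axis, from 0) of the 9 genes (x axis) in the 4 groups, with bars for the mean and error bars for the SD (n = 3, cut at 0). *Erbb4* is the tallest in each group, and the WT PC bar of *Hey2* (1.80) stands below those of the other groups (6.59 to 7.34).

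Genes with the profile most like that of a member were sought by Pearson's r of log2(normalized count + 2) over 12 libraries among 7817 protein coding genes, for the 3 members with a mean above 20 normalized counts. Nearest to *Hey2* were *Abcc8* (r = 0.97), *Cep68* (0.97) and *Cstf2t* (0.96). Without WT PC replicate 2 the nearest were *Klhl21* (0.94), *Abcc8* (0.89) and *Focad* (0.87). Nearest to *Erbb3* were *Tbc1d5* (0.98), *Fam219b* (0.98) and *Card6* (0.98), and without that library *Adipor1* (0.92), *Nat9* (0.87) and *Brap* (0.87). For *Erbb4* the values were lower, at 0.81 for *E2f3* and 0.80 for *Jrkl* and *Tep1*, and without the library at 0.91 for *Acbd6*, 0.90 for *BC031181* and 0.89 for *Palld*. The points share libraries and their depth. Once WT PC replicate 2 was left out, all genes nearest to *Erbb3* and *Erbb4* were others. Of those nearest to *Hey2* only *Abcc8* stayed.

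Further genes of both pathways were followed by role. *Etv1*, an ETS family transcription factor of fast conducting cardiomyocytes on which neuregulin signalling acts, was the 1 gene called among the 91 of the 6 lists. Not all of the 91 passed the count minimum. Between PCs and VMs across both genotypes 1.28% of all genes tested were called. *Etv1* had 156 to 453 normalized counts in WT PC and 55.6 to 258 in KO PC, against 19.8 to 33.8 in WT VM and 19.7 to 25.5 in KO VM. Its log2 fold change of PC over VM was 3.14 ± 0.38 (SE; adjusted p = 6.48e-04) across both genotypes, 3.56 ± 0.46 in WT (adjusted p = 0.0316) and 2.63 ± 0.45 in KO (adjusted p = 0.0140). KO PC against WT PC gave -1.27 ± 0.56 (edgeR, unadjusted p = 0.0454, adjusted p = 0.993). KO against WT across both cell types gave -0.88 ± 0.37 (edgeR, unadjusted p = 0.0285, adjusted p = 0.922). *Etv1* is also one of the Purkinje markers, whose sum was 422, 469 and 1680 in KO PC from the lowest to the highest library, against 1046 to 3338 in WT PC, and the part of this in the *Etv1* values was not tested.

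Of the 10 other ErbB ligand genes 4 passed the count minimum between PCs and VMs across both genotypes, all 4 with values below 0. Their median log2 fold change was -0.42, against 0.02 over all genes. None had an unadjusted p under 0.05, where 11.7% of all genes had. *Egf*, the epidermal growth factor gene, had -0.71 ± 0.39 (SE; adjusted p = 0.517), and *Nrg4* (-1.09) and *Btc* (-0.13) had lower precision or smaller values. Of 9 tested of the 10 genes for EGFR and for regulators of the receptors, none was called. *Egfr* (2.24 ± 0.64, adjusted p = 0.108) and *Errfi1*, an inhibitor of ErbB kinases (1.17 ± 0.30, adjusted p = 0.0623), had an unadjusted p under 0.05, and *Bace1*, a protease that can cut neuregulin, had -0.37 ± 0.20. Of 22 tested of the 23 transducers, which carry the signal through the MAPK and PI3K cascades, *Etv1* was called and the others were not. Of the 22 values 7 were above and 15 below 0, at a median of -0.13, against 0.02 over all genes.

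On the Notch side, 5 of the 8 other ligand and receptor genes were tested, none was called, and 4 had values above 0. In this comparison, PC against VM across both genotypes, 11.7% of all genes had an unadjusted p under 0.05. *Dll4*, a ligand of endothelial cells (2.26 ± 0.73, adjusted p = 0.158), and *Notch3*, a receptor of vascular mural cells (1.59 ± 0.68, adjusted p = 0.351), had an unadjusted p under 0.05. *Notch4*, an endothelial receptor, had 1.49 ± 0.74. *Dll4*, *Notch3* and *Notch4* averaged 1.74, 5.48 and 6.16 normalized counts in WT VM and 2.49, 0.772 and 0.772 in KO VM. They passed the minimum of 5 through their PC libraries. Neither their values nor the count of 4 above 0, which includes them, can therefore be read as a shift of the list. Of 18 tested of the 23 processing and trafficking genes, 13 had values above 0 and none was called. Their median was 0.16, against 0.02 over all genes. *Dtx4* (2.37 ± 0.84, adjusted p = 0.211) had an unadjusted p under 0.05. With means of 2.19 normalized counts in WT VM and 0.814 in KO VM, *Dtx4* too passed the minimum of 5 through its PC libraries. *Aph1a* (0.99 ± 0.49) and *Aph1b* (0.54 ± 0.33), subunits of the secretase that frees the NOTCH intracellular part, had no unadjusted p under 0.05. Of 14 tested of the 17 nuclear effectors, 12 had values above 0 at a median of 0.21, against 0.02 over all genes, and none was called. *Hes6* (1.36 ± 0.56, adjusted p = 0.319) had an unadjusted p under 0.05. The coactivator genes *Maml2* and *Maml1* had 1.17 ± 0.60 and 0.47 ± 0.36. Between genotypes none of the genes in the 6 lists was called in any of the 4 comparisons.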

How the data were processed

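RNA of PCs and VMs sorted from adult mouse hearts was amplified and sequenced as paired ends in 12 libraries, 3 per group, grouped by the sample titles. The authors deposited raw counts of read pairs per gene, made per the labels with STAR 2.5.0c on mm10 and HTSeq 0.6.0, without normalization. Pairs that HTSeq assigned to no gene, 40.0% to 73.6% per library, were left out. Amplification without molecular identifiers means that read pairs are not independent molecules, and low counts carry large counting error. No source says whether the replicates came from separate animals, so p-values measure the spread between libraries only.

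Counts were tested with edgeR 4.0.16 in R 4.3.3 (TMM, quasi-likelihood F-test) on genes whose normalized counts averaged above 5 in the libraries compared, with Benjamini-Hochberg adjustment over all of them. The comparisons of 2 groups took their 6 libraries, and the others all 12. Exact permutation tests were two-sided and used log2(normalized count + 2). Positions, exon lengths and names came from GENCODE M21, which lacks 382 of the 48526 identifiers. The scripts were first tested on simulated counts. Alternatives were DESeq2 1.42.0, its size factors, limma 3.58.1 voom, other filters, a block on replicate number, no mitochondrial genes, a single fit and the omission of libraries, of which leaving out several PC libraries together was added after the data were seen. Outside the 9 members, named genes were those of the pathway lists that passed the adjustment or, in a list without one, up to 3 with the smallest p-values for PC against VM across both genotypes. Members and lists were chosen with earlier results of these data known. One gene of the marker lists is not reported here by name.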

Additional observations from a re-analysis of the deposited data

How the results depend on the processing

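The members called between PCs and VMs across both genotypes numbered 1, *Notch1*, and the same gene alone was called with DESeq2, DESeq2's size factors, filterByExpr, voom, no mitochondrial genes, and the 3 doubtful PC libraries left out together, which leaves 1 library in KO PC. With no filter on low counts 3 were called, *Notch1*, *Jag1* and *Heyl*, and with a replicate block 0 (*Notch1*: log2 fold change 2.28, adjusted p = 0.0745). Omitting single libraries gave 0 to 1 there and also 0 to 1 in WT PC against WT VM, where voom called 1, against 0 reported. In KO PC against KO VM DESeq2 called 1 and no filter 2, against 0. In the comparisons of genotypes no alternative called a member. The replicate block pairs libraries by number only, since the correlation of same-numbered libraries ran from -0.0750 to 0.207 and was above 0.1 in some pairs only; the block ended that 1 call and changed no other. Over its alternatives the adjusted p of *Notch1* across both genotypes ran from 9.03e-06 to 0.0745.

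Directions turned for members called in neither setting, and the cause was not tested. Under voom they were *Erbb3* in KO PC against KO VM (-0.0021), *Erbb4* across both genotypes (0.037), *Nrg1* (-0.18) and *Heyl* (-0.68) in KO PC against WT PC, *Erbb2* in KO VM against WT VM (-0.19), and *Heyl* for KO against WT (-0.45) and for the difference of effects (-0.76). *Heyl* for KO against WT also turned under DESeq2 (-0.094) and the replicate block (-0.073), and *Erbb3* in KO PC against KO VM without mitochondrial genes (-0.015). With the doubtful PC libraries left out together, *Erbb3* in KO PC against KO VM gave -0.082, and across both genotypes *Erbb3* gave 2.54e-05 and *Erbb4* 0.25. Omitting single libraries moved WT PC against WT VM from -0.28 to 1.07 for *Nrg1*, -0.052 to 0.94 for *Erbb2* and -0.98 to 0.029 for *Erbb3*. It moved KO PC against KO VM from -0.14 to 0.13 for *Erbb3* and -0.91 to 0.43 for *Erbb2*, and the value across both genotypes from -0.21 to 0.49 for *Erbb2*, -0.14 to 0.096 for *Erbb4* and -0.42 to 0.027 for *Erbb3*. KO PC against WT PC ran from -1.54 to 0.40 for *Hey1*, -0.61 to 1.36 for *Heyl*, -0.0052 to 0.95 for *Nrg1*, -1.05 to 0.13 for *Erbb2* and -0.018 to 1.01 for *Erbb3*. KO VM against WT VM ran from -0.40 to 0.75 for *Erbb2*, -0.088 to 0.21 for *Erbb3*, -1.06 to 0.21 for *Jag1*, -0.12 to 0.24 for *Hey2* and -0.14 to 0.082 for *Erbb4*. KO against WT ran from -0.90 to 0.43 for *Heyl* and -0.47 to 0.23 for *Erbb2*, and the difference of effects from -0.039 to 0.93 for *Erbb3* and -1.91 to 0.27 for *Jag1*. *Notch1* between cell types and *Hey2* in WT PC kept their direction under every alternative run. Depth limits the weak members most, as *Nrg1*, *Hey1* and *Heyl* had at most 3 read pairs in every KO VM library.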
